A study of Homo sapiens with 6 samples.

Results

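The genes examined were 39 genes of glycolysis and of the cellular response to low oxygen, selected by symbol from the 60676 genes of the count table: 26 encode glucose and lactate transporters, glycolytic enzymes and regulators of glycolytic flux, and 13 encode oxygen sensing factors and their target genes. RNA-seq was performed on TC71, a human Ewing sarcoma (EWS) cell line with an EWS-FLI1 fusion oncogene, in which a lentiviral construct makes an shRNA upon addition of Dox, directed in the shEHD1 line at EHD1 and in the shNTC line at no target. EHD1 is an ATPase of endocytic recycling. The comparison asked which of these transcripts differed after EHD1 knockdown (KD), between 3 libraries of shNTC+Dox and 3 libraries of shEHD1+Dox. Both lines were selected with puromycin as pools and grown in 0.5 µg/ml Dox for 3 days in medium with added pyruvate, and the labels name no low-oxygen treatment in either group. The shNTC+Dox group therefore carried the vector and received Dox as well, cells without Dox were not analysed here, and the sources used here do not say which of the study's EHD1 shRNAs these libraries carry. Nothing in the labels says that libraries of a group came from separate cultures, so the p-values measure only the spread between these libraries.

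Glycolysis converts glucose to pyruvate in the cytosol, and lactate dehydrogenase can then reduce pyruvate to lactate, which leaves the cell through monocarboxylate transporters. Tumor cells commonly run this route at a high rate even with oxygen present. When oxygen is short, the hypoxia inducible factors HIF1A and EPAS1 escape hydroxylation by the prolyl hydroxylases of the EGLN family, accumulate as proteins, pair with ARNT and bind a short DNA core, RCGTG, near target genes that include many glycolytic genes. Much of this control acts on protein stability, which transcript counts do not measure.

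To show how that core sits before members on which the results turn, bases before the RefSeq start of EPAS1, the member with the largest fall, and of BNIP3, the called member with the most core matches before a start in the table, are given here from RefSeq (GRCh38.p14), 5′ to 3′ on the strand of the gene and ending where annotated exons begin, with capitals marking ACGTG or GCGTG on either strand (CACGT or CACGC on the opposite strand; ACGTG and CACGT overlap within CACGTG).
EPAS1, chr2:46297157-46297406, plus strand: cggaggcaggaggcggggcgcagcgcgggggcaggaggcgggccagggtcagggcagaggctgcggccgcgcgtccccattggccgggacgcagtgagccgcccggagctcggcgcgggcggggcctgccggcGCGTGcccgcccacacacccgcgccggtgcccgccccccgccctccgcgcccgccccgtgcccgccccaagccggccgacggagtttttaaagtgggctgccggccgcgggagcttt
BNIP3, chr10:131981968-131982173, minus strand: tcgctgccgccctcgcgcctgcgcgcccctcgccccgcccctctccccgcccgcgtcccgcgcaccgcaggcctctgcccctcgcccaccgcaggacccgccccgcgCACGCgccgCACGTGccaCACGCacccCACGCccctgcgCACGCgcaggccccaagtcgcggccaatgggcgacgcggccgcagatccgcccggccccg
The EPAS1 stretch held 1 match and the BNIP3 stretch 6. In the annotation used for gene positions, EPAS1 begins farther upstream, and the stretch printed lies inside that gene but outside its exons. P4HA1, another called member, had 1 match in the 250 bases before its start and P4HA2 none. RefSeq starts were found for 33 of the 39 genes. Of their 60 starts, 35 (58.3%) had at least 1 match in the 250 bases before the start, beside 43.2% of all 35116 starts in the table. A match is only a string of letters, and no binding was measured.

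Total counts were 26528902, 28203023 and 22711235 in shNTC+Dox replicates 1, 2 and 3, and 28157184, 24150135 and 30582187 in shEHD1+Dox replicates 1, 2 and 3. Levels are given as CPM (counts scaled to a fixed library total) after TMM scaling, a scaling that sets libraries to a common composition. shNTC+Dox replicate 3 stood apart from the other shNTC+Dox libraries on the second principal component of log2 CPM, at -38.7 beside 32.8 and 29.1, so some results are also given without it. Mitochondrially encoded genes took 3.57%, 3.88% and 4.04% of the counts of the shNTC+Dox libraries and 2.71%, 1.94% and 2.12% of those of the shEHD1+Dox libraries. The groups did not overlap in this share, and its part in the results was not tested.

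EHD1 itself was at 27.1, 28.0 and 26.4 CPM in shNTC+Dox and at 7.55, 7.15 and 9.37 CPM in shEHD1+Dox. All shEHD1+Dox libraries lay below all shNTC+Dox libraries, as the labels imply, and the log2 fold change was -1.76 (SE 0.12, n = 3 per group, adjusted p = 1.35e-04 by edgeR's quasi-likelihood test with Benjamini-Hochberg adjustment over all genes tested, the test used throughout). All 9 listed markers of Ewing sarcoma were expressed in every library, with PRKCB, CD99 and NR0B1 among the most abundant. CD99, the surface glycoprotein used to recognize these tumors, rose (log2 fold change 0.33, adjusted p = 0.0293), and STEAP1, PAX7 and BCL11B fell. Epithelial, blood, endothelial and muscle markers each summed to less than 0.6 CPM in every library. In a bulk sample such as these, fewer cells of a kind and less RNA per cell cannot be told apart.

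Of the 39 genes, 38 had at least 10 counts in at least 3 libraries and were tested. A gene was called where the adjusted p was under 0.05. In shEHD1+Dox 4 members rose and 5 fell, 9 of 38 (23.7%), beside 2910 of 16785 genes tested (17.3%), of which 8.59% of all tested rose and 8.75% fell. With a fold change of at least 2 required as well, P4HA2 rose and EPAS1 fell, beside 1.08% of all genes tested that rose and 1.74% that fell (2.82% in all). All shEHD1+Dox libraries lay above all shNTC+Dox libraries for 7 members and below them for 12, beside 19.9% and 19.4% of all genes tested. The median log2 fold change was -0.059 over the 38 members and 0.0008 over all genes tested. The 26 glycolysis genes had 1 rise (HK1) and 3 falls (TPI1, ENO1 and PFKFB3), 15.4% of them, with a median log2 fold change of -0.077. The 12 tested hypoxia genes had 3 rises (BNIP3, P4HA1 and P4HA2) and 2 falls (EPAS1 and BNIP3L), 41.7% of them, with a median of 0.14. In this fit the glycolytic share was thus near the background, and the hypoxia genes moved in both directions. The glycolytic count depended on the setting. With DESeq2, 3 of the 26 rose and 6 fell, beside 23.9% of all genes. Without shNTC+Dox replicate 3 the counts were the same, beside 21.5%. Without any other single library at most 2 rose and 1 fell, beside at most 12.1% of all genes tested.

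**Figure D1:**
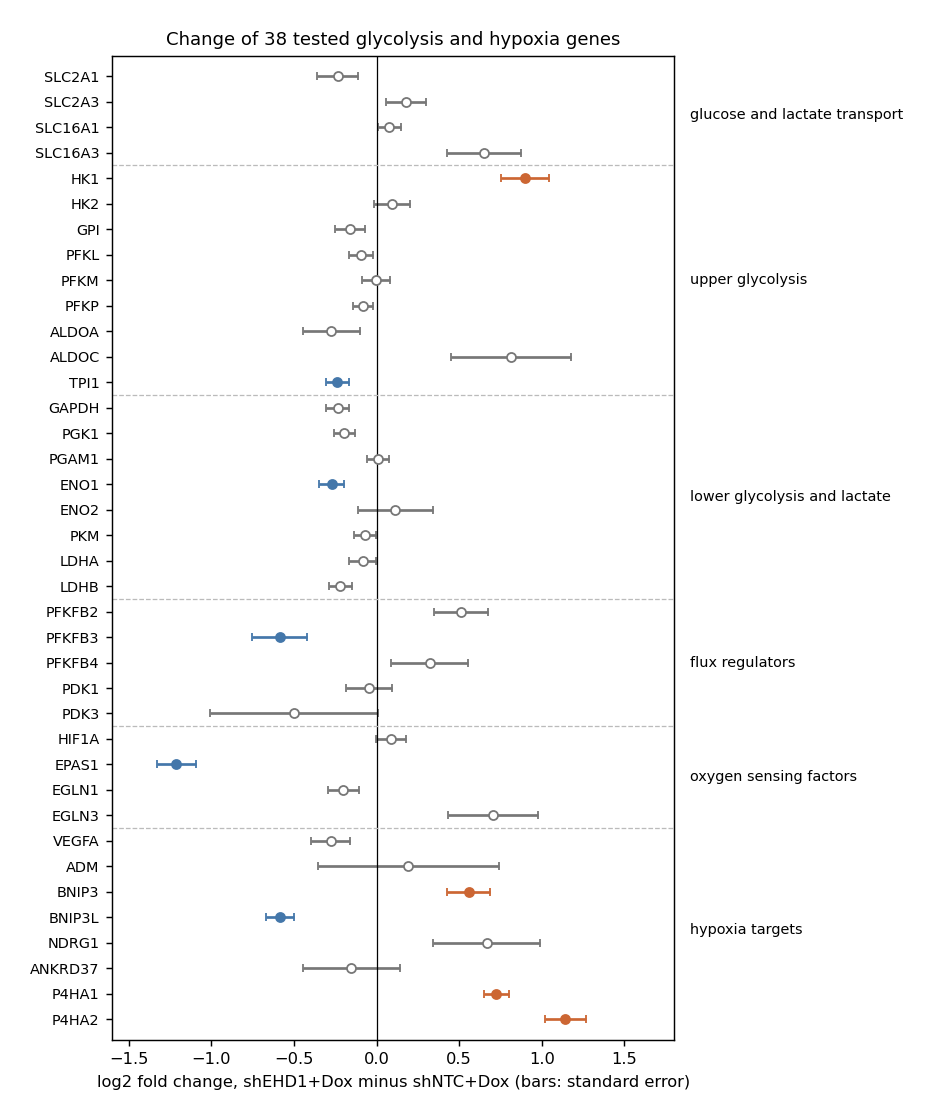
Log2 fold change (horizontal axis, shEHD1+Dox minus shNTC+Dox, bars showing the standard error of the fit) of the 38 members tested, grouped by role (right). Filled points passed an adjusted p of 0.05 (orange higher, blue lower) and open points did not; P4HA2 at 1.14 and EPAS1 at -1.21 lie farthest from 0, while most glycolytic enzymes sit between -0.3 and 0.1.

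None of the 4 transporter genes passed the test. SLC2A1, the basal glucose transporter GLUT1, was at 27.0, 25.9 and 35.4 CPM in shNTC+Dox and at 25.7, 25.7 and 23.5 CPM in shEHD1+Dox. The shEHD1+Dox libraries were the 3 lowest, by a narrow margin except against shNTC+Dox replicate 3, and the log2 fold change was -0.24 (SE 0.13, adjusted p = 0.231), or -0.083 (adjusted p = 0.532) without that library. SLC2A3, the neuronal-type transporter GLUT3, had a log2 fold change of 0.18 (adjusted p = 0.359). SLC16A1 (MCT1), which exports lactate in most cells, was at 36.3 ± 1.70 CPM per kb of exon in shNTC+Dox, far above SLC16A3 on that scale, and at 230.1 ± 10.8 CPM (SD, n = 3) in that group and at 243 ± 12.1 CPM with shEHD1 (log2 fold change 0.077, adjusted p = 0.478). SLC16A3 (MCT4), the lactate exporter typical of highly glycolytic cells, was low, at 1.596, 1.99 and 2.24 CPM against 2.81, 3.56 and 2.78 CPM. The groups did not overlap for SLC16A3, yet the log2 fold change of 0.65 (SE 0.23) did not pass the test (adjusted p = 0.0806). Without shNTC+Dox replicate 3 it was 0.76 with an adjusted p of 0.0467. SLC16A3 shares exon bases with CSNK1D, whose counts were far higher, and the library kit does not keep strand, so its level is uncertain.

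At the entry of the pathway, the hexokinases phosphorylate glucose. HK1 (chr10:69269984-69401884, plus strand, GRCh38 as for all genes here), the widely expressed form, was at 6.69, 9.10 and 6.94 CPM in shNTC+Dox and at 14.4, 14.7 and 13.3 CPM in shEHD1+Dox. Every shEHD1+Dox library lay well above every shNTC+Dox library, and HK1 rose with a log2 fold change of 0.90 (SE 0.15, adjusted p = 0.00462). HK2, the form typical of muscle and of many tumors, was at 103.8, 103 and 130.4 CPM and at 114, 132 and 114 CPM, so that the groups overlapped (log2 fold change 0.094, SE 0.11, adjusted p = 0.588). Per kilobase of exon, HK2 remained the main hexokinase in all libraries: it made up 94.4 ± 1.38% of the summed level of both genes in shNTC+Dox and 90.8 ± 0.56% in shEHD1+Dox. This difference of -3.66 percentage points separated the groups, and its exact two-sided permutation p of 0.1 is the smallest that 3 libraries against 3 allow (0.267 after adjustment over the 8 isozyme shares compared).

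Of the next steps, from glucose phosphate isomerase to triose phosphate isomerase, TPI1 alone was called. GPI had a log2 fold change of -0.16 (adjusted p = 0.258), or -0.053 (adjusted p = 0.552) without shNTC+Dox replicate 3. The phosphofructokinase subunits PFKL, PFKM and PFKP, which form the committing step, had log2 fold changes of -0.093, -0.0017 and -0.083 and overlapped between groups. TPI1 (chr12:6867119-6870948, plus strand), which interconverts the triose phosphates, was at 832, 794 and 797 CPM in shNTC+Dox and at 689, 648 and 719 CPM in shEHD1+Dox. All shEHD1+Dox libraries were lower for TPI1, which fell by 15.2% (log2 fold change -0.24, SE 0.069, adjusted p = 0.0457). This call stood close to the threshold and was lost without any 1 of 5 libraries, with adjusted p up to 0.148. ALDOC, the aldolase of brain, was at 13.2, 14.6 and 5.06 CPM and at 18.1, 17.3 and 22.6 CPM. The low shNTC+Dox replicate 3 made the spread of ALDOC wide: the log2 fold change of 0.82 (SE 0.36) had an adjusted p of 0.176, and without that library it was 0.48 with an adjusted p of 0.0296.

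ALDOA, the main aldolase, was at 848, 644 and 975 CPM in shNTC+Dox and at 557, 701 and 783 CPM in shEHD1+Dox. The groups overlapped, and the log2 fold change of -0.27 (SE 0.17) had an adjusted p of 0.314. Single libraries moved it: it was -0.13 without shNTC+Dox replicate 3, -0.15 without shEHD1+Dox replicate 1 and -0.42 without shNTC+Dox replicate 2, none called. ALDOA shares exon bases on the same strand with AC093512.2, a gene model that had 917, 6668 and 233 counts with shNTC and 5736, 1035 and 291 counts with shEHD1, high in the library of each group where ALDOA was lowest. With both genes summed, a step chosen after the values were seen, the level was 883, 885 and 985 CPM with shNTC and 759, 743 and 793 CPM with shEHD1. The summed level was lower in all shEHD1+Dox libraries (log2 fold change -0.26, adjusted p = 0.0396), but it no longer passed without any 1 of 5 libraries, with adjusted p up to 0.135.

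The payoff steps below the triose phosphates held the most abundant members, and for 5 of their 8 genes the 3 lowest libraries were those of shEHD1+Dox, beside 19.4% of all genes tested. GAPDH, which makes the high-energy bisphosphoglycerate and the NADH of the pathway, was at 3424, 3454 and 3439.9 CPM in shNTC+Dox and at 2895, 2837 and 3029 CPM in shEHD1+Dox. Its shNTC+Dox libraries were close to each other and its shEHD1+Dox libraries were all lower, with a log2 fold change of -0.24 (SE 0.072) that missed the threshold (adjusted p = 0.0522). ENO1 (chr1:8861000-8879190, minus strand), the ubiquitous enolase, was at 3005, 3017 and 3283 CPM and at 2535.5, 2529 and 2645 CPM. ENO1 fell by 17.1% (log2 fold change -0.27, SE 0.075, adjusted p = 0.0386), again with no overlap, and lost its call without any 1 of 5 libraries, with adjusted p up to 0.143. PGK1, the first ATP-forming kinase, and LDHB, the lactate dehydrogenase subunit of heart, had log2 fold changes of -0.20 and -0.22 with adjusted p of 0.0622 and 0.0562. Without shNTC+Dox replicate 3, GAPDH, PGK1 and LDHB also passed the test, and 6 of the 26 glycolysis genes fell and 3 rose (HK1, ALDOC and SLC16A3), beside 10.3% of all genes tested that fell and 11.2% that rose at this setting (21.5% in all). Leaving out any other library left at most 1 fall, beside at most 6.42% of all genes tested.

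The remaining genes of these steps were not called. PKM, which makes pyruvate and ATP, was at 1350.9, 1340.3 and 1368 CPM in shNTC+Dox and at 1266, 1257 and 1339 CPM in shEHD1+Dox. The PKM groups were separated by a very small gap, and the log2 fold change of -0.072 (SE 0.067) had an adjusted p of 0.500. LDHA, the lactate dehydrogenase subunit of muscle and a classical hypoxia target, was at 898, 911 and 1044.5 CPM and at 854, 934 and 904 CPM, with overlapping groups (log2 fold change -0.084, SE 0.082, adjusted p = 0.521). PGAM1 and ENO2 had log2 fold changes of 0.0077 and 0.11 and overlapped as well. Summed over the 8 genes, the level was 11565, 11676 and 12041 CPM with shNTC and 10157, 10083 and 10542 CPM with shEHD1.

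**Figure D2:**
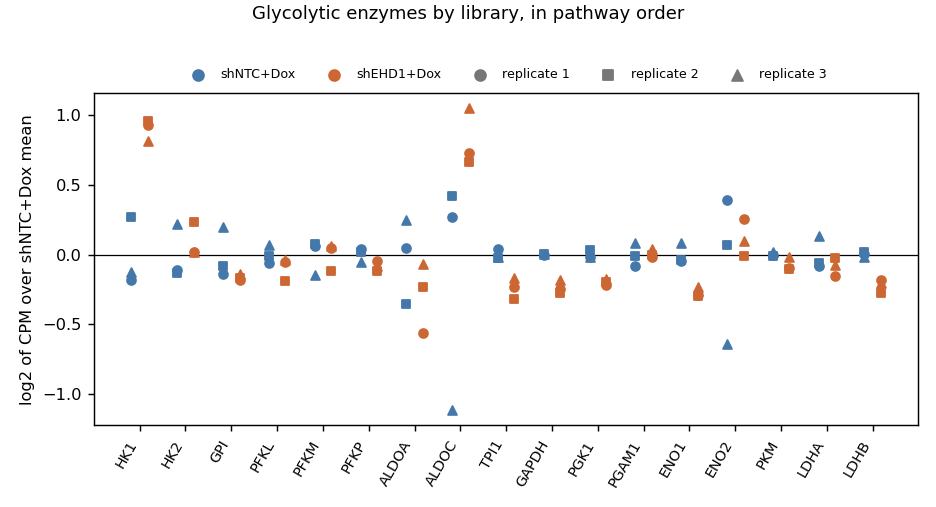
Level of each glycolytic enzyme gene in each library, as the log2 of its CPM over the shNTC+Dox mean (vertical axis), with genes in pathway order and replicates by marker shape. shEHD1+Dox libraries (orange) lie above the control for HK1 and ALDOC and below it for GPI, TPI1, GAPDH, PGK1, ENO1, PKM and LDHB; ALDOA, ALDOC and ENO2 are scattered within groups.

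Per kilobase of merged exons, the order of levels in shNTC+Dox was led by GAPDH (1435 ± 6.26 CPM per kb, SD, n = 3), ENO1 (595 ± 30.2), LDHB (559 ± 7.44) and TPI1 (299 ± 7.82). These 4 genes did not overlap in level between neighbours in that order, and the same 4 led in shEHD1+Dox at 1219 ± 41.2, 493 ± 12.5, 480.1 ± 16.03 and 254 ± 13.2 CPM per kb, where ENO1 and LDHB overlapped. The order depends on the length used: PKM has 8572 merged exon bases but a longest transcript of 3016, and TPI1 has 2700 and 1763. The order by longest transcript was not tested, so the place of TPI1 above PKM is uncertain. ALDOA at 215 ± 43.6 and PGAM1 at 176 ± 10.2 overlapped in shNTC+Dox, as did LDHA and PKM, both near 158. The ALDOA level, here and in the aldolase share below, leaves out the counts of the overlapping AC093512.2. These were 6668 in shNTC+Dox replicate 2 and 5736 in shEHD1+Dox replicate 1. The overlap with PGAM1 and the aldolase share were not tested with both genes summed. At the other end of the 26 glycolysis genes stood PDK3 at 0.052 ± 0.011 and SLC16A3 at 0.21 ± 0.035 CPM per kb. LDHB made up 78.0 ± 1.65% of the summed lactate dehydrogenase level in shNTC+Dox and 76.3 ± 1.39% in shEHD1+Dox (exact permutation p = 0.3). ALDOC made up 2.07 ± 1.24% of the aldolase level in shNTC+Dox and 4.03 ± 0.53% in shEHD1+Dox, and SLC16A3 0.574 ± 0.075% and 0.853 ± 0.079% of the SLC16A1 and SLC16A3 sum, both without overlap and with the smallest p of 0.1. For SLC2A3, PFKP, ENO2 and PDK3 the shares overlapped between groups, with exact p from 0.2 to 0.5.

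**Figure D3:**
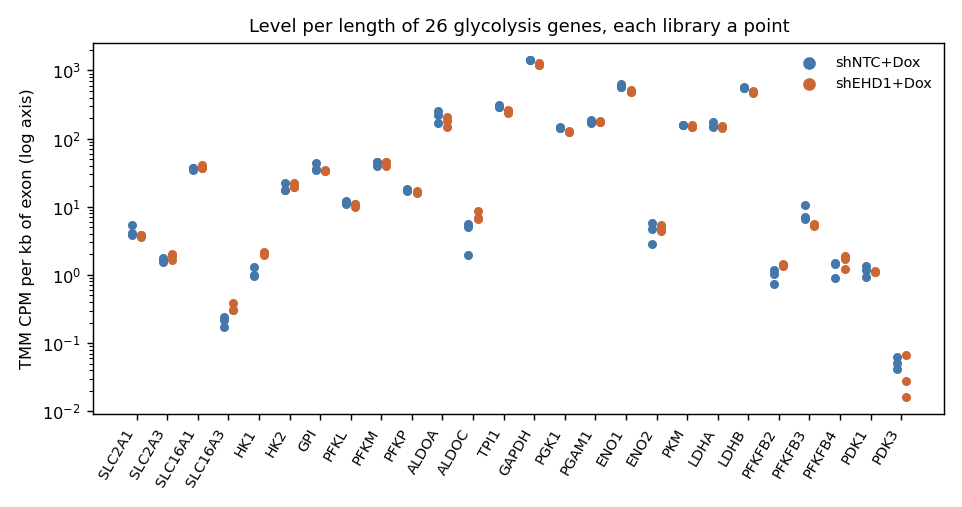
Level of the 26 glycolysis genes as CPM per kilobase of merged exons (vertical log axis), each point 1 library, blue for shNTC+Dox and orange for shEHD1+Dox. Levels run from 0.052 for PDK3 to 1435 for GAPDH (shNTC+Dox means), so that differences between groups are small beside differences between genes.

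The flux regulators set how much glucose carbon enters and leaves the pathway. PFKFB enzymes make and remove the sugar bisphosphate that activates phosphofructokinase. PFKFB3 (chr10:6144934-6254644, plus strand), the form with the strongest kinase activity, was at 43.2, 40.7 and 64.6 CPM in shNTC+Dox and at 32.1, 34.0 and 32.6 CPM in shEHD1+Dox. PFKFB3 fell with a log2 fold change of -0.59 (SE 0.16, adjusted p = 0.0450), all shEHD1+Dox libraries lying below all shNTC+Dox libraries. shNTC+Dox replicate 3 was much the highest, and without it the log2 fold change was -0.35 with an adjusted p of 0.00770. Without any 1 of 4 other libraries the call was lost, with adjusted p up to 0.134. PFKFB2, the heart form, was higher in every shEHD1+Dox library (log2 fold change 0.51, adjusted p = 0.0625), but it shares 315 exon bases with YOD1, which had more counts than it and fell. PFKFB4, at 7.83 ± 2.097 and 9.79 ± 2.09 CPM, overlapped between groups. PDK1, the HIF target that blocks pyruvate dehydrogenase, was at 17.5, 19.8 and 13.7 CPM and at 16.3, 16.3 and 16.8 CPM. The shEHD1+Dox values of PDK1 lay inside the shNTC+Dox range (log2 fold change -0.045, SE 0.14, adjusted p = 0.854). PDK3, at under 1.2 CPM in every library, had a log2 fold change of -0.50 with an SE of 0.51, so that a moderate change in either direction was not detectable at this depth. With shEHD1+Dox replicate 2 left out its value was -1.23, and with shEHD1+Dox replicate 1 left out -0.14, neither of which passed the test.

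Among the oxygen sensing factors, EPAS1 differed most. EPAS1 (chr2:46293667-46386697, plus strand) encodes HIF-2α, the hypoxia inducible factor best known in endothelium, kidney cancer and erythropoietin control, and bases before its RefSeq start are printed above. EPAS1 was at 13.4, 13.8 and 13.3 CPM in shNTC+Dox and at 6.18, 5.97 and 5.36 CPM in shEHD1+Dox. The shNTC+Dox libraries were tightly grouped, more than 2-fold above any shEHD1+Dox library, and EPAS1 fell with a log2 fold change of -1.21 (SE 0.12, adjusted p = 5.30e-04), the call standing in all 11 alternatives. HIF1A, the broadly expressed related factor, was at 122, 131 and 116 CPM and at 120.2, 148 and 124 CPM. The HIF1A groups overlapped (log2 fold change 0.086, SE 0.092, adjusted p = 0.563). Per kilobase of exon, HIF1A stood at 23.9 ± 1.504 and 25.4 ± 2.93 CPM per kb, well above EPAS1 at 1.85 ± 0.033 and 0.801 ± 0.058 CPM per kb.

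The prolyl hydroxylases that mark both factors for degradation were not called. EGLN1 (PHD2), the main oxygen sensor, was at 45.4 ± 2.63 CPM with shNTC and at 39.5 ± 4.20 CPM with shEHD1 (log2 fold change -0.20, adjusted p = 0.171). EGLN3 (PHD3), which is itself induced by hypoxia, was at 2.04 ± 0.44 and 3.32 ± 0.87 CPM (log2 fold change 0.70, SE 0.27, adjusted p = 0.108). The groups overlapped for both.

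The target genes moved in both directions. P4HA1 and P4HA2 encode catalytic subunits of the prolyl hydroxylase that matures collagen. P4HA1 (chr10:73007217-73096974, minus strand) was at 60.3, 65.6 and 56.2 CPM in shNTC+Dox and at 96.0, 102.5 and 102.6 CPM in shEHD1+Dox. P4HA1 rose in every shEHD1+Dox library, with a log2 fold change of 0.73 (SE 0.077, adjusted p = 6.87e-04). P4HA2 (chr5:132190147-132295315, minus strand) was at 16.9, 17.3 and 13.2 CPM and at 37.8, 35.5 and 31.7 CPM. P4HA2 had the largest rise of the 38 genes tested, with a log2 fold change of 1.14 (SE 0.12, adjusted p = 7.63e-04) and a wide gap between the groups. Both calls stood in all 11 alternatives. COL3A1, a substrate collagen and the most abundant gene of the fibroblast marker list, rose as well, from 194 ± 20.8 to 359 ± 29.0 CPM (log2 fold change 0.89, adjusted p = 7.32e-04). Of that list of 5 genes, 4 were tested: COL3A1 rose, DCN fell (log2 fold change -1.01), COL1A1 and LUM were not called, and PDGFRA had no counts outside shNTC+Dox replicate 3, where it had 3. Their summed level, most of it from COL3A1, was 231, 236 and 191 CPM with shNTC and 359, 417 and 379 CPM with shEHD1. The sum thus mainly restates the rise of COL3A1, and its part in the rise of P4HA1 and P4HA2 was not tested.

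BNIP3 and BNIP3L (NIX) are related mitophagy receptors, and both are textbook hypoxia targets, yet they moved apart. BNIP3 (chr10:131967684-131981967, minus strand) was at 28.5, 34.9 and 23.6 CPM in shNTC+Dox and at 43.8, 44.02 and 40.5 CPM in shEHD1+Dox. All shEHD1+Dox libraries were higher, and BNIP3 rose with a log2 fold change of 0.56 (SE 0.13, adjusted p = 0.0212), a call lost without any 1 of 4 libraries, with adjusted p up to 0.0793. BNIP3L was at 56.1, 62.7 and 59.3 CPM and at 43.0, 39.5 and 36.3 CPM. BNIP3L fell in every shEHD1+Dox library, with a log2 fold change of -0.59 (SE 0.085, adjusted p = 0.00290), and kept its call in all 11 alternatives. BNIP3L shares 330 exon bases with PNMA2 on the opposite strand, which had more counts than it and a log2 fold change of -0.30 (adjusted p = 0.133). The part of PNMA2 reads in the BNIP3L count was not tested.

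**Figure D4:**
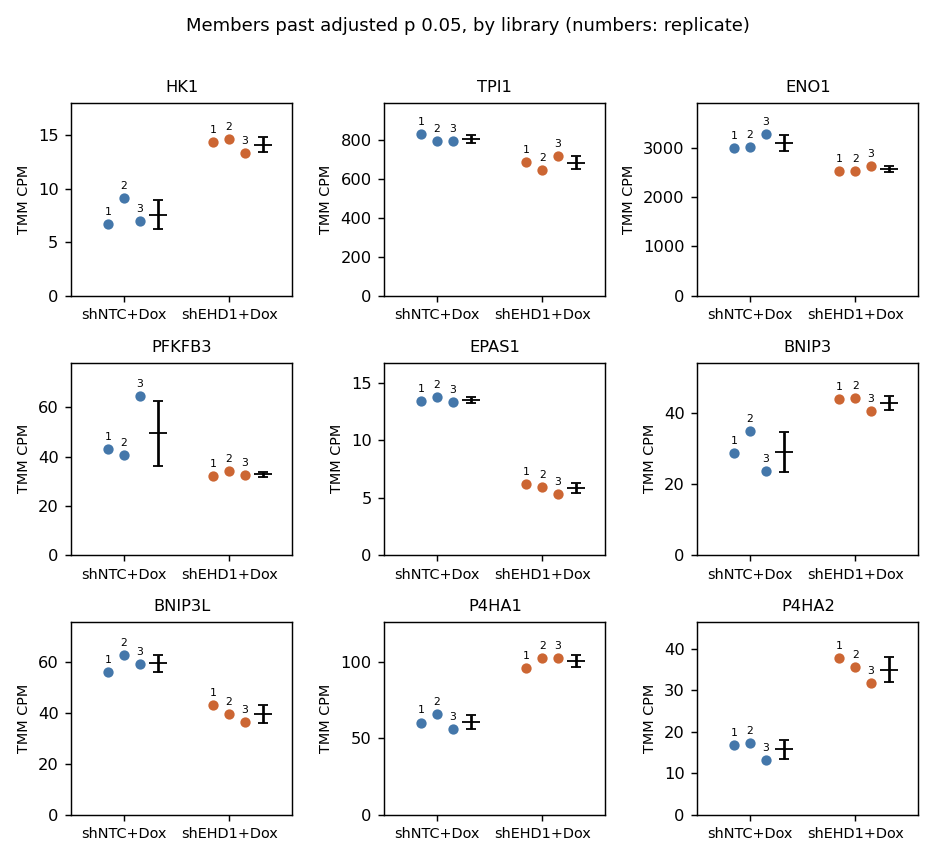
TMM-scaled CPM (vertical axes from 0) of the 9 members called, in each of the 3 shNTC+Dox (blue) and 3 shEHD1+Dox (orange) libraries, numbered by replicate; bars show mean and SD. Groups do not overlap for any of the 9; the gap is widest in proportion for EPAS1 (13.3 to 13.8 against 5.36 to 6.18 CPM) and P4HA2 and narrowest for TPI1, ENO1 and BNIP3.

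Of the 8 hypoxia targets tested among the members, 4 were called (50.0%, beside 17.3% of all genes tested). The remaining members of that list were not called, and CA9 was not tested. VEGFA, the angiogenic growth factor, was at 69.1, 52.9 and 54.1 CPM in shNTC+Dox and at 49.7, 43.8 and 51.7 CPM in shEHD1+Dox. All shEHD1+Dox libraries were below all shNTC+Dox libraries for VEGFA, but the log2 fold change of -0.28 (SE 0.12) did not pass the test (adjusted p = 0.132), and it was -0.15 (adjusted p = 0.379) without shNTC+Dox replicate 1, the highest library. CA9, the membrane carbonic anhydrase often used as a hypoxia marker, had 0 counts in all 6 libraries, which allows up to 0.0981 to 0.132 CPM per library by the limit of 3 counts. ADM, NDRG1 and ANKRD37 were scarce, with means from 0.354 to 1.91 CPM, and their groups overlapped. Their log2 fold changes were 0.19 (SE 0.55), 0.67 (SE 0.32) and -0.15 (SE 0.29), so that moderate changes of these genes were not detectable at this depth. ANKRD37 also shares 909 exon bases with UFSP2 on the opposite strand, which had far more counts, so its level is uncertain.

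Other genes of the same pathways were taken from lists written from general knowledge. Of 44 further hypoxia targets, 39 were tested and 16 called (41.0%, beside 17.3% of all genes tested), 12 higher and 4 lower (beside 8.59% and 8.75%), with a median log2 fold change of 0.14. The count was 15 higher and 4 lower without shNTC+Dox replicate 3, beside 11.2% and 10.3% of all genes tested at that setting. Among the largest rises of genes with a mean of at least 1 CPM were those of DDIT4, the mTORC1 inhibitor REDD1, and BHLHE41, a transcriptional repressor of the clock. DDIT4 was at 27.7, 27.2 and 14.8 CPM in shNTC+Dox and at 63.5, 50.6 and 62.4 CPM in shEHD1+Dox (log2 fold change 1.34, SE 0.23, adjusted p = 0.0107). BHLHE41 was at 5.13 ± 0.26 and 10.6 ± 0.56 CPM (log2 fold change 1.05, adjusted p = 0.00139). The 4 falls, named here after their values were seen, were in KDM4B, a histone demethylase (log2 fold change -1.02), HILPDA, a lipid droplet protein (-0.50), ANKZF1 (-0.36) and FAM162A (-0.36).

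Of 16 partners and regulators of the factors 14 were tested, and edgeR called 1, beside 17.3% of all genes tested. By its test 7 had an unadjusted p under 0.05, beside 32.3%. DESeq2 called 3 higher and 2 lower, beside 23.9% of the genes it gave an adjusted p. Without shNTC+Dox replicate 3 the edgeR count was 2 higher and 2 lower, beside 21.5% of all genes tested at that setting. VHL, CUL2 and SIAH2 (named after their values were seen) also passed there. The gene called by edgeR with all libraries was HIF1AN (FIH), the asparagine hydroxylase that limits the transcriptional activity of both factors. HIF1AN was at 81.8, 81.6 and 86.5 CPM in shNTC+Dox and at 59.6, 60.8 and 59.2 CPM in shEHD1+Dox. The HIF1AN groups were far apart relative to their spread, and it fell with a log2 fold change of -0.48 (SE 0.064, adjusted p = 0.00213). ARNT, the obligate partner, and VHL, which targets both factors for degradation, had log2 fold changes of 0.27 and -0.17. Neither was called by edgeR with all libraries included.

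Further transporters and glycolytic isoforms gave 3 rises and 1 fall among 15 tested, beside 8.59% and 8.75% of all genes tested. SLC2A13, a myo-inositol transporter of the same family, fell (log2 fold change -0.65, adjusted p = 0.00222). SLC2A11 (0.71, adjusted p = 0.0384), SLC16A4 (0.60, adjusted p = 0.00966) and PGM2, named after its values were seen, rose (0.32, adjusted p = 0.0115). SLC2A11 shares exon bases with other gene models and lost its call without any 1 of 4 libraries, with adjusted p up to 0.126, and SLC16A4 lost it without shEHD1+Dox replicate 1 (adjusted p = 0.0504). The tissue-restricted isoforms HK3, HKDC1 and PKLR had 0 counts in every library, below 0.132 CPM each by the limit of 3 counts.

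At the entry of pyruvate into mitochondria, 2 of 11 genes tested fell and none rose, beside 8.75% of all genes tested that fell and 8.59% that rose. PDHA1, the catalytic subunit of pyruvate dehydrogenase, was at 170.3, 172 and 174 CPM in shNTC+Dox and at 129.6, 142 and 133 CPM in shEHD1+Dox (log2 fold change -0.35, SE 0.063, adjusted p = 0.00702). PDPR, a regulatory subunit of the phosphatase that activates the complex, fell to a like extent (-0.39, SE 0.064, adjusted p = 0.00484). The groups did not overlap for either gene, and both share exon bases with gene models on the opposite strand. TXNIP, which restrains glucose uptake and is induced by glucose through MLX, was at 21.8, 20.9 and 12.2 CPM and at 35.2, 30.4 and 37.2 CPM. TXNIP rose with a log2 fold change of 0.90 (SE 0.20, adjusted p = 0.0217), and lost its call without shEHD1+Dox replicate 1 or 3, with adjusted p of 0.0772 and 0.0776. MLX and its partner MLXIP had log2 fold changes of -0.13 and -0.15 and were not called.

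**Figure D5:**
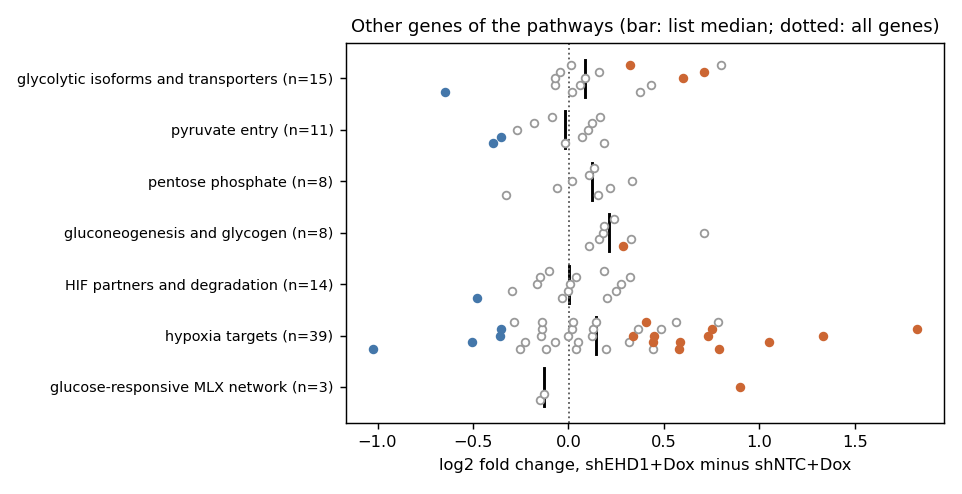
Log2 fold change (horizontal axis, shEHD1+Dox minus shNTC+Dox) of the 98 tested genes of the other pathway lists, 1 point per gene, by list, with the list median as a bar and the median of all genes as a dotted line. Filled points passed an adjusted p of 0.05, 17 higher (orange) and 8 lower (blue), 25.5% of the 98 beside 17.3% of all genes tested; the further hypoxia targets, 39 of the 98 genes, hold 12 of the higher and 4 of the lower.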

How the data were processed

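RNA-seq libraries of 3 shNTC+Dox and 3 shEHD1+Dox samples were grouped by the sample labels. The authors deposited raw whole-number counts for each gene. Their methods name hisat2 (hg38, Ensembl annotation) and StringTie, whereas the submitters' processing notes name STAR 2.7.3a and DESeq2. How counts were derived, and how reads fitting several genes were treated, is not given in the sources used here, and the TruSeq kit does not keep strand. Pseudogene copies and overlapping genes may therefore exchange reads with members. Coordinates and exon lengths came from GENCODE release 44 on GRCh38, which held 99.5% of the gene identifiers. No column was left unmapped.

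Counts were scaled by TMM and tested by the quasi-likelihood method of edgeR 4.0.16 (R 4.3.3; robust glmQLFit, then glmQLFTest) with Benjamini-Hochberg adjustment over 16785 genes, those reaching 10 counts in 3 or more libraries. Totals of 22711235 to 30582187 counts gave a biological coefficient of variation of 15.0%. Counts of 0 were bounded by 3 counts, which covers counting error only. Isozyme shares used CPM per kilobase of merged exons and exact two-sided permutation tests over libraries (scipy 1.17.1). In simulated data (16785 genes, 200 of them shifted by 1.5 log2 units), a call required an adjusted p under 0.05 and at least a 2-fold change. By that rule edgeR recovered 85% with 3 false calls, and DESeq2 81% with 1. Smaller shifts, and calls without the fold requirement, were not assessed, so these values do not give the error rate of the calls made here.

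The members, gene lists and tests were chosen with earlier results of these data known. Named were EHD1 and every member. Of each further list, up to 3 called genes of largest change with a mean of at least 1 CPM were named. Values in every library were given for called members, for 10 members set by name and for some further members. Some list genes that the rule names are not reported here. Any other gene named was chosen after its values were seen. Alternatives were size factors from DESeq2, testing without a low-count filter or with 10 counts required in all libraries, DESeq2 1.42.0 (Wald test), a block on replicate number, omission of single libraries, and the longest transcript as gene length. Sums with pseudogenes (16 members) and of ALDOA with its overlapping gene were added after seeing the data.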

Additional observations from a re-analysis of the deposited data

How the results depend on the processing

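The calls of HK1, EPAS1, BNIP3L, P4HA1, P4HA2, DDIT4, BHLHE41, SLC2A13, HIF1AN, PDPR and PDHA1 kept direction and side of the threshold in all 11 alternatives, and adding pseudogene counts changed no call of the 16 members concerned. The number of glycolysis genes called depended most on the choice: 1 higher and 3 lower became 3 higher and 6 lower with DESeq2, 0 lower without the filter on low counts, and from 1 to 3 higher and from 0 to 6 lower with a library left out. Calls over all genes were 2910 of 16785 (17.3%) in the main fit and 3622 of the 15147 given an adjusted p (23.9%) with DESeq2. Without the filter they were 2590 of 31000 (8.35%), a lower share mostly because more genes were tested. Over all genes, leaving out a library gave from 603 to 1883 higher and from 671 to 1732 lower. PFKM, near 0, turned to 0.015 without the filter. With a library left out, log2 fold changes spanned 0 for PFKM (-0.070 to 0.054), PGAM1 (-0.031 to 0.052), ENO2 (-0.12 to 0.35), PDK1 (-0.18 to 0.080), HIF1A (-0.012 to 0.14) and ADM (-0.17 to 0.49), none of which was called. Of the 29 members not called, 18 moved by over 1.5 times on the log2 scale with 1 library left out, and of the 9 called PFKFB3 did. With the longest transcript as length, the HK2 share differed by -5.47 and the SLC16A3 share by 0.365 percentage points. The causes were not tested.

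The labels number the replicates alike in both groups but state no shared culture or day. Deviations of same-numbered libraries correlated at 0.072, -0.059 and -0.045. With 3 libraries per group, such values cannot tell whether a culture or day was shared. Under the block on replicate number, 874 genes were higher and 892 lower, and 0 glycolysis genes were lower. TPI1 (adjusted p = 0.118), ENO1 (0.123), PFKFB3 (0.0572), SLC2A11 (0.0773) and UGP2 (0.0974) were no longer called by edgeR, and the calls of HK1, EPAS1, BNIP3, BNIP3L, P4HA1 and P4HA2 stood. Not every sample correlated best with its own number.

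Depth limits the scarce members: at under 2.4 CPM in every library, ADM, NDRG1, ANKRD37 and PDK3 had standard errors of 0.29 to 0.55 on the log2 scale. The 3 libraries per group limit every exact test to a p of 0.1 or more.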

Other observations

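Among genes that store glucose or run glycolysis in reverse, 8 of 13 listed were tested and all 8 had a positive log2 fold change, with a median of 0.21. UGP2, which makes the UDP-glucose used for glycogen, was the gene called, beside 8.59% of all genes tested that rose: it rose from 80.1 ± 6.70 CPM in shNTC+Dox to 97.5 ± 4.80 CPM in shEHD1+Dox (SD, n = 3 per group; log2 fold change 0.28, SE 0.080, adjusted p = 0.0405 by edgeR's quasi-likelihood test). The call was lost without any 1 of 5 libraries, with adjusted p up to 0.145. With shNTC+Dox replicate 3 left out, 5 of the 8 genes were called, all higher, beside 11.2% of all genes tested that rose at that setting. PCK2, the mitochondrial form of the enzyme that makes phosphoenolpyruvate from oxaloacetate, was at 61.3, 69.6 and 37.3 CPM in shNTC+Dox and at 97.3, 86.2 and 92.2 CPM in shEHD1+Dox. The groups did not overlap for PCK2, but the log2 fold change of 0.71 (SE 0.21) did not pass the test (adjusted p = 0.0588). Without shNTC+Dox replicate 3, the lowest library, it was 0.49 with an adjusted p of 0.00252. For 7 of the 8 genes all shEHD1+Dox libraries lay above all shNTC+Dox libraries, beside 19.9% of all genes tested. Glycogen phosphorylases PYGL and PYGB and the synthase GYS1 had log2 fold changes of 0.16, 0.18 and 0.11, none called with all libraries included, and PYGB passed without shNTC+Dox replicate 3 (0.21, adjusted p = 0.0333).

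The pentose phosphate pathway branches from glycolysis after hexokinase and makes NADPH and ribose. None of its 8 tested genes was called by edgeR's test, beside 17.3% of all genes tested, 1 had an unadjusted p under 0.05, beside 32.3%, and DESeq2 called 1, beside 23.9% of the genes it gave an adjusted p. With shNTC+Dox replicate 3 left out edgeR called 2, PGLS and RPIA (named after their values were seen), both higher, beside the same 11.2%. H6PD, which runs the opening steps in the endoplasmic reticulum, had a log2 fold change of 0.33 (SE 0.16, adjusted p = 0.203). shNTC+Dox replicate 3 was the lowest library for H6PD, at 71.1 CPM beside 110.4 and 111 CPM in the other shNTC+Dox libraries, and without it the log2 fold change was 0.15 (adjusted p = 0.172). TKT and TALDO1, which shuttle carbon back to glycolysis, had log2 fold changes of -0.058 and 0.019 with overlapping groups.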
